A study of Mus musculus with 4 samples.

Results

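The regions described here are 3224 peaks of Flag chromatin immunoprecipitation followed by sequencing (ChIP-seq) that lay at the ends of protein-coding genes and were called in only 1 of the 2 ChIP libraries. They were chosen by the deposited peak calls themselves. A replicate 2 peak on chromosomes 1 to 19 was taken when it shared 0 bp with every replicate 1 peak and its summit lay within 1000 bp of either end of a protein-coding gene. Replicate 2 held 25539 peaks on these chromosomes and replicate 1 held 12627, so the 3224 regions came from 38166 listed peaks. Of the 9233 replicate 2 peaks with a summit at a gene end, they made up 34.9%, and the other 6009 overlapped a replicate 1 peak. Because the difference between the 2 libraries chose the regions, that difference is a description here and no test was made.

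Both libraries were made from bone-marrow cells depleted of lineage-positive cells, taken from C57BL/6 mice at 8 weeks of age with the genotype 3xFlag-Nynrin-Tg, and immunoprecipitated with a Flag antibody. The 2 input libraries of the series were not analysed here, and no mice without the transgene were used as a comparison. The promoter that drives the transgene was not given in the sources used here. Whether each replicate was a different animal or pool is not stated, so technical and biological differences between the 2 libraries cannot be told apart.

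A ChIP-seq peak marks a stretch of DNA that was recovered more often than its surroundings with the antibody. In mammals many promoters, above all those of genes used in most cell types, lie in CpG islands, which are stretches rich in CG dinucleotides that often carry GC boxes and sites for ETS, NRF1 and YY1 factors. Promoters of genes restricted to a lineage more often lack such an island. Lineage-negative marrow is depleted of cells with mature surface markers and contains stem cells, multipotent progenitors and the committed precursors of the myeloid, erythroid and megakaryocytic lines. Nynrin encodes a protein with a domain related to retroviral integrases.

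The promoters of 6 genes at these regions are printed first, because they show the range of sequence involved. They cover the strongest region of all (Ankzf1), 2 transcription factor genes of progenitors (Myb and Lyl1), a myeloid transcription factor gene (Irf8), a respiratory chain gene (Ndufa10) and a neutrophil granule protease gene (Ctsg). Each run is the RefSeq promoter window of GRCm38.p6, the assembly behind mm10, from 250 bases before the annotated start to 50 bases from it, read 5′ to 3′ on the gene's strand. Capitals mark matches on either strand to the motifs spelled out with the motif counts further on. The windows lay at chr1:75191910-75192209 (plus strand, Ankzf1), chr10:21160935-21161234 (minus, Myb), chr8:84701207-84701506 (plus, Lyl1), chr8:120736108-120736407 (plus, Irf8), chr1:92473709-92474008 (minus, Ndufa10) and chr14:56102525-56102824 (minus, Ctsg).
Ankzf1: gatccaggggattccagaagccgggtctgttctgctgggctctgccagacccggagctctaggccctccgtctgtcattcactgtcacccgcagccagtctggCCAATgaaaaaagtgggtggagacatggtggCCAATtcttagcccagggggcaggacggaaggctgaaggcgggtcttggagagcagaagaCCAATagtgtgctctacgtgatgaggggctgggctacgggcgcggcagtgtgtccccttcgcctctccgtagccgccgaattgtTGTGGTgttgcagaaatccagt
Myb: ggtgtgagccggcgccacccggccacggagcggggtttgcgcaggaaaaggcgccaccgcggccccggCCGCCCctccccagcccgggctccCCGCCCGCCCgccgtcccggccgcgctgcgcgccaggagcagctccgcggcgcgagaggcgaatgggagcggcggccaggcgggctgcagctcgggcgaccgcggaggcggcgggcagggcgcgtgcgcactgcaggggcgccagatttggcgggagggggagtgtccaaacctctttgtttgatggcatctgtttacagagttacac
Lyl1: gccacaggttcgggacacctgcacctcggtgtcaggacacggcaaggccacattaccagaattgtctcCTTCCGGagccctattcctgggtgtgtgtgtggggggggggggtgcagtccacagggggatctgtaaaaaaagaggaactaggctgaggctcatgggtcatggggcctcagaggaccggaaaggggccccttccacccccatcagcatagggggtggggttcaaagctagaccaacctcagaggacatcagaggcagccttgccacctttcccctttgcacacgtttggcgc
Irf8: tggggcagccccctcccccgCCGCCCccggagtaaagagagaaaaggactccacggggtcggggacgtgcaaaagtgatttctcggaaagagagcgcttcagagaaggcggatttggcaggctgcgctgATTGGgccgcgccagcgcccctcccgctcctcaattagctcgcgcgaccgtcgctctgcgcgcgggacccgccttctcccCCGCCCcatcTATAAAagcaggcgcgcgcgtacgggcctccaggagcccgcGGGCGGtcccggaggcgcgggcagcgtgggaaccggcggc
Ndufa10: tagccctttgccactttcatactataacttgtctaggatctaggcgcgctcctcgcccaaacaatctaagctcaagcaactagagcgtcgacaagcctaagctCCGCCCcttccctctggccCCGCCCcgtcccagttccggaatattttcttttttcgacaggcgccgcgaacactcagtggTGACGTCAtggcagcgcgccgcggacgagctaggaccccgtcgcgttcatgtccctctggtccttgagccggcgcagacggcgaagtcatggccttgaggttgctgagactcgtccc
Ctsg: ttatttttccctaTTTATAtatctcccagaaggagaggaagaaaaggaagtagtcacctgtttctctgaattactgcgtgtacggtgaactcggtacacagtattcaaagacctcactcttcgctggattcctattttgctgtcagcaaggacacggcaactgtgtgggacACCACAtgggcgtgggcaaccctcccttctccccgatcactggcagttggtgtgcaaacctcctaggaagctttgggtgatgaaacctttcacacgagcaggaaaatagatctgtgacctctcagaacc

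All 300 bases of the first 5 windows were covered by the replicate 2 peak, and 24 of 300 bases for Ctsg. The ratio of observed to expected CG dinucleotides was 1.06 in the Ndufa10 window, 1.03 in Irf8 and 0.952 in Myb. It was 0.533 in Ankzf1, 0.464 in Ctsg and 0.261 in Lyl1. Myb and Ndufa10 carried 3 and 2 GC boxes, and Irf8 carried 3 with a CCAAT box and a TATA box. The Ndufa10 window held a palindromic cyclic AMP response element, read as 2 overlapping matches. Ankzf1 held 3 CCAAT boxes and 1 RUNX match, Lyl1 held 1 ETS match, and Ctsg held 1 TATA box and 1 RUNX match. Counted from the annotated start, the summit stood at -5 bp for Myb, -4 bp for Irf8, -117 bp for Ndufa10, -122 bp for Ankzf1, 109 bp for Lyl1 and 168 bp for Ctsg. These windows therefore span CpG-rich and CpG-poor promoters.

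The regions were weaker than the gene-end peaks of replicate 2 that overlapped replicate 1, and stronger by median than its other peaks without an overlap. Their fold enrichment, the authors' linear ratio of signal to the caller's background at the summit, ran from 2.40 to 11.4 with a median of 4.52 and quartiles of 3.72 and 5.58. The gene-end peaks that overlapped replicate 1 had a median of 7.71. Replicate 2 peaks without an overlap away from gene ends, 11591 in number, had a median of 3.99. The median −log10 q was 5.49 against 16.8 in the overlapping gene-end peaks, and the median width was 601 bp against 1237 bp. A −log10 q of at least 5 was reached by 1784 regions (55.3%) and by 5756 overlapping peaks (95.8%). Strength in replicate 2 is related to what chose the regions, so these values are a description.

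When the 9233 gene-end peaks of replicate 2 were divided by fold into 10 classes of equal size, the share without a replicate 1 overlap was lower in every stronger class. It was 86.5% in the weakest class, whose median fold was 3.45, then 79.0% and 64.4% in the next classes. In the middle of the range it was 42.6% and 32.7%, at median folds of 5.53 and 6.11. The strongest class, with a median fold of 11.7, held 4 such peaks among 924 (0.433%, exact Clopper-Pearson 95% interval 0.118 to 1.10%). Above a fold of 8 there were 95 regions among 2782 gene-end peaks, and above 10 there were 8 among 1176. All intervals given here cover counting error over peaks or genes only.

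**Figure D1:**
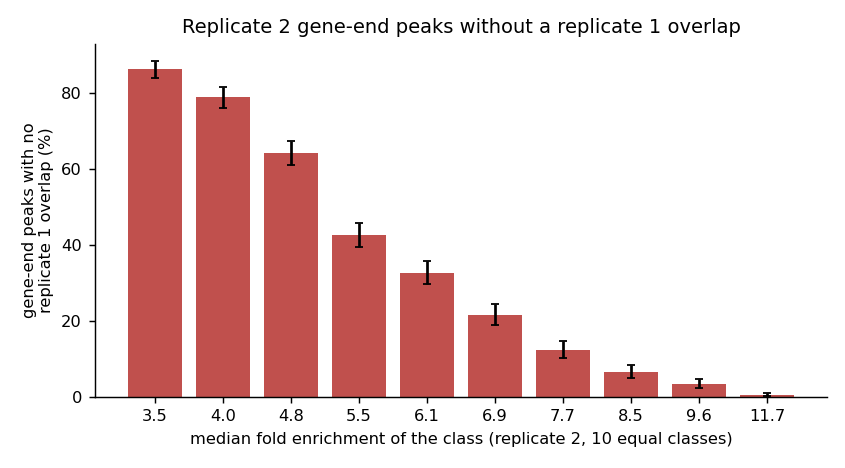
Share of replicate 2 gene-end peaks that overlap no replicate 1 peak (percent, vertical axis) in 10 equal classes of fold enrichment, each named by its median fold. Bars are shares, lines are exact 95% intervals over peaks, and the shares fall from 86.5% in the weakest class to 0.433% in the strongest.

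The regions were not confined to certain chromosomes among the 19 examined. The share of replicate 2 gene-end peaks without an overlap was lowest on chromosome 16, at 26.2% (95% interval 21.3 to 31.6%), and highest on chromosome 6, at 40.0% (35.5 to 44.6%). Most regions were also far from any replicate 1 peak. The median gap was 22743 bp, and 244 regions (7.57%) lay within 1000 bp of a replicate 1 peak. The smallest gap was 9 bp, at Ifi47, an interferon-inducible GTPase gene whose region had a fold of 5.05. Usp47 (16 bp, fold 6.16) and Pdpr (22 bp, fold 3.72) came next. The longest gaps were all on chromosome 5, with 4327972 bp at Hgf, 3668171 bp at Pcdh7 and 2514025 bp at Pacrgl. Hgf, which encodes hepatocyte growth factor, had a fold of 4.05 at 135 bp from its start.

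The 3 peaks just inside the 1000 bp limit and the 3 just outside it were weak. Just inside it were peaks at Atp6v0c (999 bp, fold 3.72), Atn1 (999 bp, fold 3.45) and Eif5a (998 bp, fold 3.37). Just outside it were peaks at Zhx1 (1001 bp, fold 3.72), Phgdh (1001 bp, fold 3.72) and Abcb4 (1001 bp, fold 3.45). Stronger regions also lay close to the limit, such as that of Csrp1 at 995 bp from its other end (fold 6.38).

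The regions reached 3314 of 20665 protein-coding genes, and 341 regions (10.6%) lay at the ends of more than 1 gene, 5 of them at 3 genes. The genes fell into 2 classes. No replicate 1 summit lay at either end of 2761 genes (13.4% of all protein-coding genes), which were 28.2% of the 9778 genes with a replicate 2 summit at an end. Another replicate 1 summit lay within 1000 bp of an end of the other 553 genes (2.68% of all), which were 7.82% of the 7074 genes with a replicate 1 summit at an end. Each of the shares beside gene groups below is read against these. The strongest region of a gene had a median fold of 4.78 in the genes without a replicate 1 summit and of 3.99 in the genes with one.

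The end of the gene that carried the region is described next. The rule took either end, but where replicate 1 holds a start, a region that may not overlap it can lie only beside it or at the other end. The split of the genes by replicate 1 thus bears on these shares, which are given with no test. The strand, and so the start, was known for 2514 of the regions. Of these, 2115 (84.1%, 95% interval 82.6 to 85.5%) had the summit nearer a gene start than another end, against 4696 of 4837 overlapping gene-end peaks (97.1%). Gene-end peaks found only in replicate 1 gave 83 of 96 (86.5%, 95% interval 78.0 to 92.6%). For the regions at genes without a replicate 1 summit the share was 89.8% (1871 of 2083), and at genes with one it was 56.6% (244 of 431). Regions with no such start within 1000 bp, at the other end of the gene only, were 203 of 2083 (9.75%) and 173 of 431 (40.1%). The start in these counts was the outer 5′ bound of the gene, and other starts inside a gene were not looked for. The other end is the annotated 3′ end of the gene.

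The share at the other end only was also counted within classes of fold. At a fold below 4 it was 23.2% of regions (217 of 934) against 12.4% of overlapping peaks (21 of 170). Between 4 and 5 it was 15.8% against 7.96%, between 5 and 6 it was 8.70% against 4.72%, and between 6 and 8 it was 4.73% against 1.71%. At a fold of at least 8 it was 0 of 82 regions, with an upper 95% limit of 4.40%, against 0.861% of overlapping peaks. Both kinds of peak were defined by replicate 1 calls, so the choice of regions bears on these shares too.

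Around annotated starts the summits of the regions were centred on the start but more spread than those of overlapping peaks. The median distance was 135 bp over 2041 summits, and 69.7% lay within 250 bp. For 4776 overlapping summits the median was 98 bp and 84.4% lay within 250 bp. For 79 summits found only in replicate 1 the median was 417 bp and 36.7% lay within 250 bp. The median signed position was 15 bp downstream for the regions and -26 bp, upstream, for the overlapping peaks. In the genes with another replicate 1 summit the regions near a start lay at a median of 323 bp from it, against 128 bp in the genes without one. A region may not overlap a replicate 1 peak at the start, so the choice of regions bears on this distance.

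**Figure D2:**
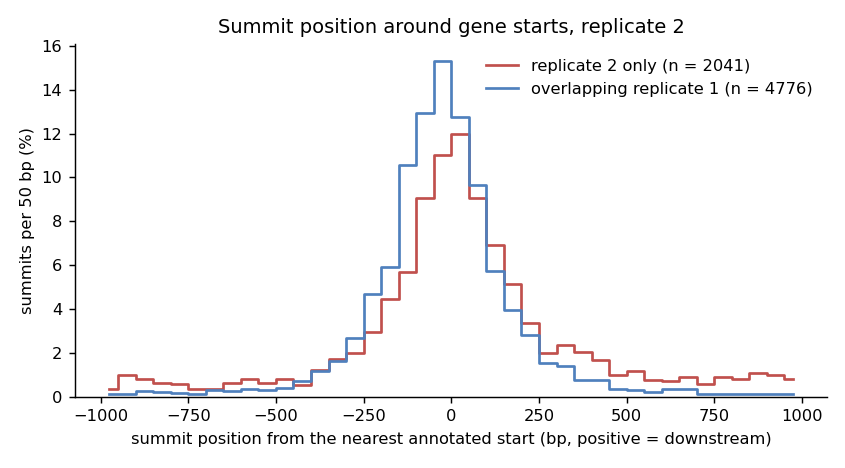
Position of replicate 2 summits relative to the nearest annotated gene start (bp, downstream positive, horizontal axis), as percent of summits per 50 bp. Red is the 2041 summits found only in replicate 2 and blue the 4776 overlapping replicate 1, and 69.7% and 84.4% of them lie within 250 bp of the start.

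The promoters under the regions were richer in CG dinucleotides than promoters in general and less so than those under overlapping peaks. Over 1980 promoter windows the median GC content was 60.7% and the median ratio of observed to expected CG was 0.718. A ratio of at least 0.6, termed CpG-rich here, was found in 69.2% (95% interval 67.1 to 71.2%). The 4761 promoters under overlapping peaks had a median ratio of 0.841 and 87.0% were CpG-rich. The 79 promoters under gene-end peaks found only in replicate 1 had a median ratio of 0.704. Of these, 63.3% were CpG-rich (95% interval 51.7 to 73.9%). Over all 20063 promoter windows on chromosomes 1 to 19 the figures were 0.585 and 48.9%. Over the 10227 windows with no summit of either replicate within 1000 bp they were 0.260 and 19.4%. None of the promoter windows lay on chromosome 18, for which the source had no entry. The regions at genes with and without another replicate 1 summit had 67.1% and 69.5% CpG-rich promoters.

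Stronger regions more often lay at CpG-rich promoters, as did stronger overlapping peaks. Below a fold of 4 the share was 62.2% of regions and 53.2% of overlapping peaks. Between 4 and 5 it was 62.1% and 71.5%, between 5 and 6 it was 73.7% and 79.9%, and between 6 and 8 it was 79.8% and 86.0%. At a fold of at least 8 it was 90.2% and 93.2%. The difference in CpG content between the 2 kinds of peak was therefore smaller among peaks of like strength than over all of them, and it had the opposite sign below a fold of 4.

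**Figure D3:**
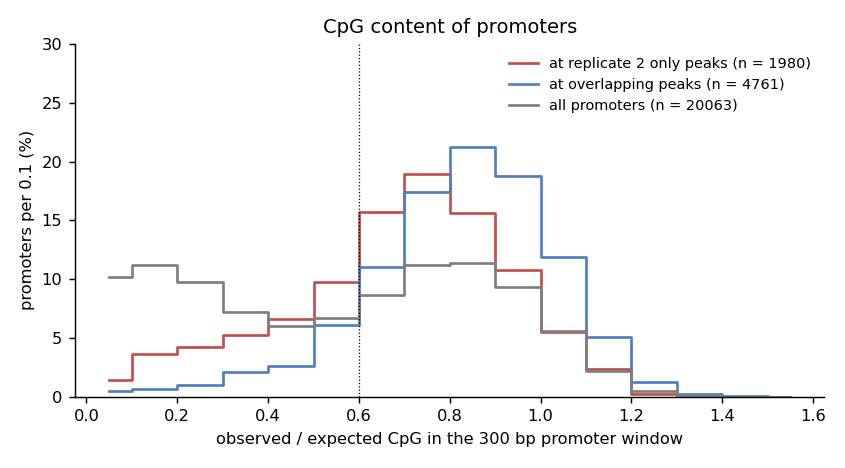
Ratio of observed to expected CG dinucleotides in the 300 bp promoter window (horizontal axis) as percent of promoters per 0.1. Red is promoters at regions found only in replicate 2, blue those at overlapping peaks and grey all promoters, and the dotted line marks the ratio of 0.6 that 69.2%, 87.0% and 48.9% of them reach.

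For 5 of the 10 motifs the share at the regions lay below that at overlapping peaks and above that of all promoters. The motifs were searched on both strands of the 300 base windows, with overlapping matches counted. The GC box (GGGCGG) was found in 66.3% of promoters at the regions, 72.3% at overlapping peaks, 26.8% at promoters with no summit and 47.0% of all promoters. The ETS motif (CCGGAAG) was found in 15.6%, 23.7%, 3.06% and 11.9%, in the same order. The cyclic AMP response element (TGACGT) was found in 8.79%, 15.4%, 4.39% and 8.59%, and the NRF1 motif (GCGCATGC) in 4.19%, 7.67%, 1.17% and 3.55%. The E-box (CACGTG) was found in 10.2%, 12%, 5.03% and 7.89%. For the response element and NRF1 the share of all promoters lay within the 95% interval at the regions (7.58 to 10.1% and 3.35 to 5.17%).

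The YY1 motif, also named above as a site of CpG islands, did not follow that order. Its letters (AAGATGG) were found in 5.76% of promoters at the regions, 8.72% at overlapping peaks, 5.08% at promoters with no summit and 6.30% of all. The CCAAT box (CCAAT) was found in 37.8%, 41.2%, 37.7% and 38.1%. The GATA motif (AGATAA) was found in 6.26%, 4.62%, 13.6% and 9.57%, the RUNX motif (TGTGGT) in 13.6%, 11.5%, 17.7% and 14.8%, and the TATA box (TATAAA) in 6.52%, 5.97%, 19.2% and 12.7%. A match describes the letters of a window only.

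The 15 genes with the strongest regions and no replicate 1 summit had them at their starts. The highest fold, 11.4 with a −log10 q of 30.5, was at the start of Ankzf1, which encodes a factor of ribosome-associated quality control, at chr1:75191632-75193058. This peak lies in a divergent promoter shared with Atg9a, an autophagy gene that had a replicate 1 summit at its other end. Gpd2, the mitochondrial glycerol-3-phosphate dehydrogenase gene, and the divergent pair Ddias and Prcp each had a fold of 10.9. Cbx1, which encodes a heterochromatin protein of the HP1 family, had 10.6. Mybbp1a, the Polycomb group gene L3mbtl2, the dolichol phosphatase gene Dolpp1 and the membrane complex gene Emc7 each had 10.1. The galactosyltransferase gene B4galt3 and the lipid transfer gene Osbpl9 had 9.83. Glce (9.71), Zfp292 (9.58), Nt5dc1 (9.57) and Lsm7, which shares its peak with Sppl2b (9.57), completed the 15 highest.

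In these 15 genes the summit stood between 2 bp (Zfp292) and 672 bp (Cbx1) from the start. The gap to the nearest replicate 1 peak ran from 3108 bp at Zfp292 to 144456 bp at Glce. Osbpl9 had 3 replicate 1 summits inside the gene and the other 14 had 0. Among all 2761 genes of the class, 386 had a replicate 1 summit inside the gene, farther than 1000 bp from either end.

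Genes of stem and progenitor cells were among those without a replicate 1 summit. Of 50 listed genes, 16 had a region and no replicate 1 summit (32.0%, 95% interval 19.5 to 46.7%, beside 13.4% of all genes), and 10 were reached by both replicates. They were 59.3% of the 27 listed genes with a replicate 2 summit, beside 28.2% over all genes, and several lists of other cell types had as high a share. Their median fold was 4.25, below the 4.78 of the whole class. The highest were Lyl1 (7.17) and Myb (6.91), transcription factors of progenitors, followed by Hlf (5.31) and Ikzf2 (4.78). The receptor tyrosine kinase genes Kit and Flt3 had 4.25 each, at 154 bp and 21 bp from the start. Gata2 (3.45) and Meis1 (3.32) were the weakest. The count rested on weak peaks, since with a −log10 q of at least 5 it was 6 genes (12%, beside 8.38% of all genes). With lists of equal length, where replicate 2 was cut by −log10 q to the length of replicate 1, it was 4 genes (8.00%, beside 6.88%).

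Myeloid genes gave a similar count. Of 49 neutrophil and monocyte genes, 14 had a region and no replicate 1 summit (28.6%, 95% interval 16.6 to 43.3%), and 19 were reached by both replicates. The oxidase subunit gene Ncf1 had a fold of 7.44, the transcription factor genes Irf8 and Cebpa had 6.11 and 5.85, and the receptor gene Csf1r had 5.44. The granule protease genes of the neutrophil line were weaker. Ctsg had 3.99 and Elane 3.79, and Prtn3 had 3 regions of 3.99, 3.20 and 2.65, all nearer its other end. With a −log10 q of at least 5 the count was 6 genes (12.2%, beside 8.38% of all genes).

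Antigen presentation genes and cytokine receptor genes also carried regions without a replicate 1 summit. Of 23 genes of antigen presentation and dendritic cells, 9 had a region and no replicate 1 summit (39.1%, 95% interval 19.7 to 61.5%). They included Irf8, the class II gene H2-Ab1 (5.85, 2 bp from the gene end), and Cd74, the invariant chain gene, with 3.99. With a −log10 q of at least 5 only 2 of them were left (8.70%, beside 8.38%). Of 43 cytokine and growth factor receptor genes, 15 did so (34.9%, 95% interval 21.0 to 50.9%), with Il6ra at 7.97, Il4ra at 6.64, the shared receptor chain gene Il6st at 5.58 and Il17ra at 5.45. Of the 43, 9 (20.9%, beside 8.38%) had a −log10 q of at least 5.

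Wnt and Notch genes were reached as well. Of 42 genes, 15 had a region and no replicate 1 summit (35.7%, 95% interval 21.6 to 52.0%), with a median fold of 5.31. Apc, which restrains β-catenin, had 7.17, the receptor gene Notch1 had 6.91, the Notch-modifying glycosyltransferase gene Lfng had 6.11 and the transcription factor gene Tcf7l2 had 5.95. With a −log10 q of at least 5 the count was 11 genes (26.2%, beside 8.38%), and with lists of equal length 10 genes (23.8%, beside 6.88%). Adhesion and surface genes of blood cells gave 10 of 37 (27.0%), led by Cd44 (7.51), Cd63 (5.85) and Cd81 (5.31), and with a −log10 q of at least 5 they gave 5 (13.5%, beside 8.38%). This Cd63 region lay 748 bp from the other end of the gene and was shared with Rdh5, and the region near the Cd63 start had 2.65. NF-kB and Toll-like signalling gave 8 of 38 (21.1%), and 23 of the 38 were reached by both replicates. The 8 were 25.8% of the 31 listed genes with a replicate 2 summit, beside 28.2% over all genes. They included the kinase gene Ikbkb at 7.97, the adaptor gene Traf6 at 7.44 and the kinase genes Map3k7 and Irak2 at 7.17 each.

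**Figure D4:**
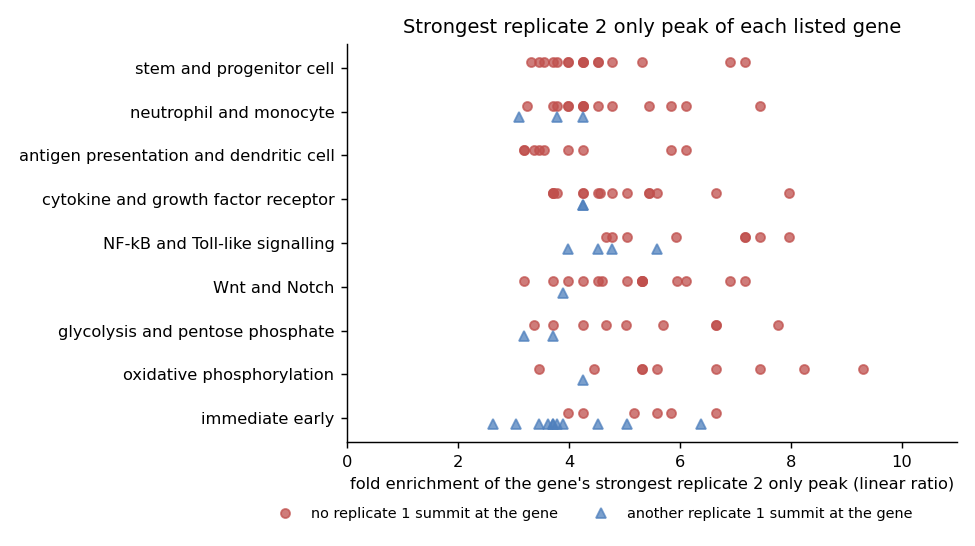
Fold enrichment in replicate 2 (linear ratio, horizontal axis) of the strongest region of each listed gene, by gene list. Red circles are genes without a replicate 1 summit at an end and blue triangles genes with another one, and the 11 triangles of the immediate early list run from 2.63 to 6.38.

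Markers of other blood lines and of non-blood cells were also among the genes reached. Of 31 megakaryocyte and platelet genes, 7 had a region and no replicate 1 summit (22.6%, led by Cd9 at 5.85). With a −log10 q of at least 5 these were 2 genes (6.45%, beside 8.38% of all genes), and with lists of equal length 1 gene (3.23%, beside 6.88%). The counts were 5 of 35 erythroid genes (14.3%, led by Icam4 at 7.71), 3 of 28 B cell genes (10.7%, led by Bank1 at 6.11) and 4 of 34 T and NK cell genes (11.8%, led by Tcf7 at 5.31). The Icam4 region of 7.71 lay at its other end and was shared with Icam5, and the region at the Icam4 start had 5.58. Mast cell and basophil genes gave 3 of 15 (20.0%). Endothelial genes gave 4 of 22 (18.2%, led by Nos3 at 5.85), stromal and bone genes 3 of 27 (11.1%), liver and kidney genes 2 of 25 (8.00%) and neuronal genes 1 of 29 (3.45%, Grin1 at 3.45). The Nos3 region was shared with Atg9b and lay 745 bp from an end of Nos3 that could not be told as start or other. With a −log10 q of at least 5 these lists gave 0 of 15 mast cell and basophil genes, 1 of 22 endothelial genes and 0 of the stromal and neuronal genes. Of the few genes of these lists with a replicate 2 summit, most had no replicate 1 summit, namely 4 of 5 endothelial, 3 of 4 mast cell and basophil, 3 of 3 stromal and bone and 4 of 7 T and NK cell genes. No list was tested against another.

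Genes of the respiratory chain had mostly been reached by both replicates, and glycolysis genes less so. Of 56 oxidative phosphorylation genes, 46 were reached by both replicates and 9 had a region and no replicate 1 summit (16.1%, 95% interval 7.62 to 28.3%). Those 9 were 16.4% of the 55 genes with a replicate 2 summit, beside 28.2% over all genes. They included Ndufa10 (9.30), Ndufb10 (8.24) and Ndufa2 (7.44) of complex I and the cytochrome c1 gene Cyc1 (6.64). Glycolysis and the pentose phosphate pathway gave 9 of 32 (28.1%, 95% interval 13.7 to 46.7%), with Aldoc (7.77), the phosphofructokinase gene Pfkp and the glucose transporter gene Slc2a1 (6.64 each) and Tpi1 (5.70). This Aldoc region lay at the other end of that gene, in reach of Pigs, and a weaker Aldoc region (4.52) lay 13 bp from its start.

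Cytosolic ribosomal protein genes were almost all reached by both replicates, 71 of 82, and 2 had a region and no replicate 1 summit (2.44%), Rps24 (4.78) and Rpl19 (3.99). Mitochondrial ribosomal protein genes gave 11 of 77 (14.3%), led by Mrps9 (8.50), and proteasome genes 3 of 38 (7.89%), led by Psmc3 (7.44). Of the genes of the mitochondrial permeability transition pore, which the series title names, 2 of 25 (8.00%) were in the class, Tspo (5.31) and Bak1 (4.78). Vdac1, the outer membrane channel gene, had a region at its other end (6.11) and a replicate 1 summit at its start.

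Large families named by their symbols showed wide differences. The zinc finger genes named Zfp gave 95 of 388 (24.5%, 95% interval 20.3 to 29.1%), led by Zfp292 (9.58), Zfp131 (9.03) and Zfp935 (8.80), and with a −log10 q of at least 5 they gave 66 (17.0%, beside 8.38% of all genes). Genes named as CD antigens gave 20 of 87 (23.0%), which were 66.7% of those with a replicate 2 summit, and with a −log10 q of at least 5 they gave 11 (12.6%, beside 8.38%). Solute carriers gave 59 of 351 (16.8%) and genes named Tmem 48 of 228 (21.1%), against 37 (10.5%) and 27 (11.8%) with a −log10 q of at least 5. Olfactory receptor genes gave 2 of 1104 (0.181%), vomeronasal receptor genes 0 of 352 (upper 95% limit 1.04%), keratin genes 2 of 105 (1.90%) and Hox genes 2 of 39 (5.13%). Few genes of these 4 families had a replicate 2 summit at all. Of those that did, the class held 2 of 3 olfactory, 0 of 2 vomeronasal, 2 of 2 keratin and 2 of 3 Hox genes, beside 28.2% over all genes.

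**Figure D5:**
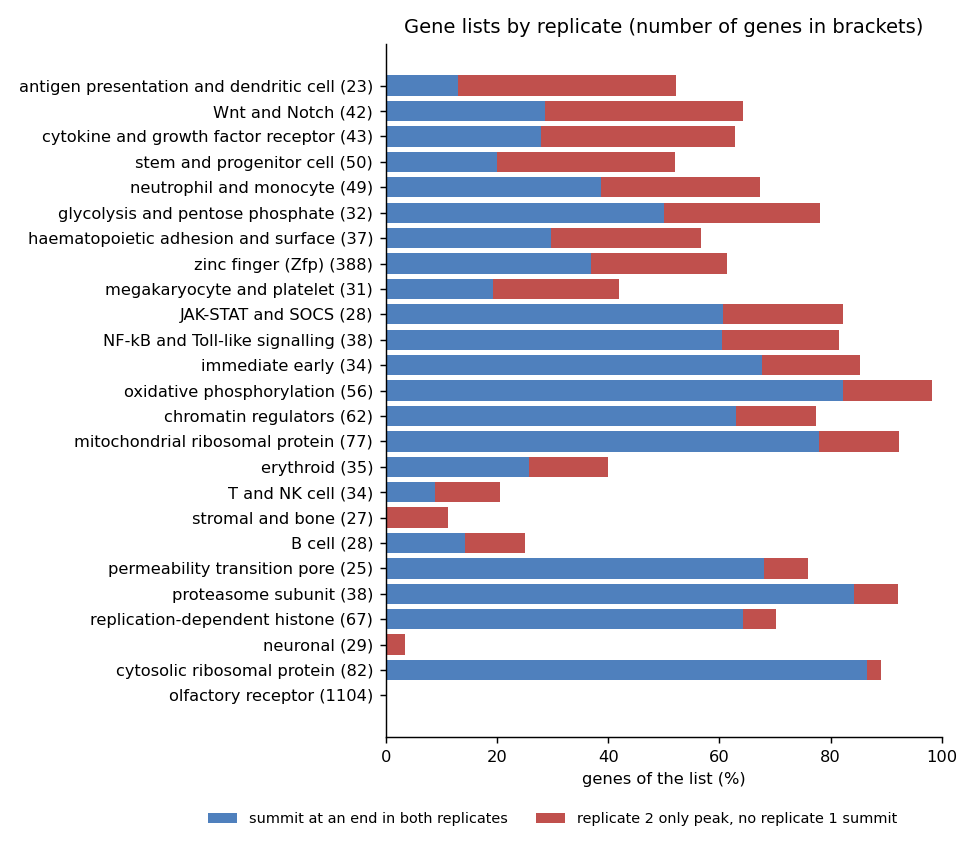
Percent of the genes of each list (horizontal axis, number of genes in brackets) with a summit at an end in both replicates (blue) and with a region found only in replicate 2 and no replicate 1 summit (red). Red runs from 39.1% in antigen presentation to 2.44% in cytosolic ribosomal proteins and 0.181% in olfactory receptors, beside 13.4% of all genes.

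Several genes of this class carried more than 1 region. There were 220 genes with at least 2 regions and 12 with at least 3, and 125 genes had regions at both ends. Scnn1a, a sodium channel subunit gene, had 3 regions of 7.71, 6.64 and 5.58. Lrrc45 had 7.61 and 3.88 near its start and 4.78 near its other end. Ltc4s, the leukotriene C4 synthase gene, had 6.64 near its other end and 3.62 and 3.19 near its start. Kdm2b, which encodes a CpG-binding histone demethylase, had 5.31, 3.99 and 3.72, all nearer its start than its other end. Nynrin itself was a member, with 1 weak region at its other end on chromosome 14 (fold 3.44, −log10 q 3.56) at 466 bp from the end, 44123 bp from the nearest replicate 1 peak.

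The 553 genes with another replicate 1 summit had, for the most part, a stronger peak shared by both replicates and a weaker one found only in replicate 2. In 503 of them replicate 2 also had a gene-end peak that overlapped replicate 1, with a median fold of 7.71, and in 458 that peak was stronger than the region. The strongest replicate 1 summit lay at the opposite end of the gene in 368 and at the same end in 185. The 2 summits were a median of 904 bp apart at the same end. A region may not overlap a replicate 1 peak, and weaker replicate 2 peaks more often lacked an overlap. The choice of regions thus bears on these strengths, ends and distances. Over the 463 genes whose ends could be told apart, the region was at the other end and the replicate 1 summit at the start in 234. Both were at the start in 147, the region was at the start and the replicate 1 summit at the other end in 72, and both were at the other end in 10. Genes of the class had a median length of 14787 bp, against 20750 bp in the genes without a replicate 1 summit and 17491 bp over all genes.

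In the 10 genes of this class with the highest regions, the region lay at the end opposite to the replicate 1 summit. Of these genes, 7 shared the region with a neighbour. After Atg9a, with 11.4 in replicate 2 and a replicate 1 summit of 3.81 at its other end, came Fkbpl (9.03) and the neighbours Usp21 and Ufc1 (8.77). Tep1 had 8.24, Zpr1 7.97, Clpp, a mitochondrial protease gene that shares its region with Alkbh7, 7.76, and Sirt7, Trem1 and Nxf1 7.71 each. The deposited fold of the replicate 1 summit ran from 2.60 at Usp21 to 5.88 at Zpr1. The folds of the 2 lists are set side by side and not compared, since the lists were called separately.

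Some of the strongest regions with no start within reach also belonged to this class. Akt1s1, which encodes an inhibitory subunit of mTOR complex 1, had a fold of 7.17 at its other end. The nucleolin gene Ncl had 6.64, the mitochondrial import receptor gene Tomm20 6.47, and the oligosaccharyltransferase gene Rpn1 6.40, each with a replicate 1 summit at the start. Strong regions of this kind at genes without a replicate 1 summit were Slc26a1 (7.85), the coagulation factor gene F12 (7.44), Cldn14 (6.91) and Slc34a3 (6.87).

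Immediate early genes, which are transcribed soon after a stimulus, were frequent in this class. These genes were chosen for description after their values were seen. Of 34 listed genes, 26 had a replicate 1 summit at an end, and 11 of those (42.3%) had a region as well, beside 7.82% over all genes. At 7 of the 11 the region was at the other end and the replicate 1 summit at the start. The transcription factor gene Fos had a region of 3.88 at 191 bp from its other end, at chr12:85477035-85477786, and a shared start peak of 8.24 in replicate 2 and 3.20 in replicate 1. Jun had 3.63 at its other end and a shared start peak of 8.24 and 5.21. Fosb had 2.63, and its shared start peak had 10.4 and 3.90. In these 3 genes the start peak was the stronger one in replicate 2.

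The antiproliferative genes Btg2 (3.72) and Btg1 (3.04), the transcription factor gene Klf6 (3.72) and the stress gene Gadd45b (3.45) had their regions at the other end as well. Zfp36 (6.38), Zfp36l1 (4.52) and Klf4 (3.79) had theirs near the start, between 618 and 772 bp from the replicate 1 summit. Zfp36l2 (5.05) had its region at the end opposite to the replicate 1 summit, on a strand that the promoter table did not give. The 11 genes were between 2114 and 8905 bp long, so both ends lay close together. Most of these regions were weak. With a −log10 q of at least 5 the count was 3 of 26 genes (11.5%, beside 3.12% over all genes), and with no replicate 1 peak allowed within 1000 bp it was 7 of 26 (26.9%, beside 5.02%). With lists of equal length it was 2 of 26 (7.69%, beside 2.39%), and with a 500 bp window 6 of 25 (24%, beside 2.90%). Where a region needed only a summit more than 200 bp from any replicate 1 summit it was 17 of 26 (65.4%, beside 29.3%), and with a 3000 bp window 19 of 31 (61.3%, beside 26.2%).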

How the data were processed

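The authors deposited 1 peak list for each of 2 Flag ChIP libraries, called separately per the peak names. The submitters' processing notes name mm10 as the build and list MACS2, Bowtie2, ChIPseeker, FastQC, Trimmomatic and cutadapt as tools. Versions, settings and the control for calling are not given in the sources used here. Each peak has a deposited fold enrichment (linear ratio), and the deposited −log10 q and −log10 p are the caller's own. The deposited score was not used. The lists carry no counts, so depth is unknown.

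Summits were converted to 1-based positions. Peaks sharing at least 1 bp were taken to overlap, and gene bounds came from the RefSeq table of GRCm38.p6. Strand, the starts used for summit positions and the 300 base windows came from the RefSeq promoter table. It held 16457 of 20665 genes and 2617 of the 3314 genes at the regions, and had no entry on chromosome 18, where 80 regions lay. Regions at genes absent from that table entered no count of starts, CpG content or motifs. Counts by gene end took the outer 5′ bound of the gene as its start. The gene table held no exons, so exonic and intronic positions were not used here. Shares have exact Clopper-Pearson 95% intervals. The selection was tested on simulated data.

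The regions and the 51 gene lists were chosen with earlier results of these data known. Genes were named by rule: the 15 without and 10 with another replicate 1 summit that had the highest fold, up to 4 per list without one, genes with regions at both ends or at least 3 regions, the 3 just inside and outside the limit, the 3 nearest and farthest from a replicate 1 peak, and Nynrin. Of these, those most useful for each group are described. List genes with a replicate 1 summit, list genes beyond the 4 highest and the strongest regions with no start within reach were named after their values were seen. Alternatives changed the overlap rule, the window, the −log10 q, list length, chromosomes and summits near several genes. Python 3.11.15, pandas 2.3.3, numpy 2.4.6, scipy 1.17.1 and matplotlib 3.10.9 were used.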

Additional observations from a re-analysis of the deposited data

Results flagged for a closer look

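Chromosome X, which the choice of regions leaves out, held 116 gene-end peaks of replicate 2 without a replicate 1 overlap, and they are given here because they were in data outside the comparisons above. They were 74.4% (exact Clopper-Pearson 95% interval 66.8 to 81.0%) of the 156 replicate 2 gene-end peaks there, beside 34.9% on chromosomes 1 to 19. Replicate 1 had 70 peaks on chromosome X and replicate 2 had 242. Among gene-end peaks with a fold from 5 to 7 the share was 71.4% (35 of 49, 56.7 to 83.4%) on chromosome X and 35.9% (973 of 2714, 34.0 to 37.7%) on chromosomes 1 to 19. The strongest were at Emd, which encodes the nuclear envelope protein emerin (7.44), Ogt, the O-GlcNAc transferase gene (7.09), the divergent pair Pdzd11 and Kif4 (6.91), and the genes Eif2s3x and Zrsr2 (6.64 each). These genes were named after their values were seen, and the difference was not tested.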

How the results depend on the processing

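The number of regions (3224) was 5352 with a 3000 bp window, 1784 with a −log10 q of at least 5 and 1437 with lists of equal length. The number of genes (3314) was 5222, 1953 and 1590 in the same order. For lists of equal length only replicate 2 was shortened, to its peaks of highest −log10 q, because replicate 1 had the shorter list. The genes without a replicate 1 summit (2761) were 1732 with a −log10 q of at least 5 and 1421 with lists of equal length. The median fold (4.52) was 5.05 where a region needed only a summit more than 200 bp from any replicate 1 summit, 4.78 with a 500 bp window, 4.25 with 3000 bp, 5.58 with a −log10 q of at least 5 and 5.85 with lists of equal length. The CpG-rich share, counted here per summit (68.8%), was 74.3% under the 200 bp summit rule, 73.3% with a −log10 q of at least 5 and 76.4% with lists of equal length. The share of summits nearer a start (84.1%) was 88.1% under the 200 bp summit rule, 88.9% with a 500 bp window, 77.8% with 3000 bp, 91.0% with a −log10 q of at least 5 and 92.0% with lists of equal length.

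The share of regions whose gene had another replicate 1 summit (16.8%) varied most. It was 11.7% with no replicate 1 peak within 1000 bp, 41.5% under the 200 bp summit rule, 7.34% with a 500 bp window, 41.0% with 3000 bp, 11.9% with a −log10 q of at least 5, 11.2% with lists of equal length and 13.9% without summits near several genes. The cause was not tested. Of the 51 list counts without a replicate 1 summit, 39 moved by over 1.5 times with lists of equal length, 27 with a −log10 q of at least 5, 12 with a 3000 bp window and 10 with 500 bp. Of the 51 counts with another replicate 1 summit, 40 moved so with 3000 bp, 37 under the 200 bp summit rule, 31 with lists of equal length, 30 with a −log10 q of at least 5 and 29 with 500 bp. With the summit counted from 0, an alternative chosen after seeing the data, 3226 regions were found. No replicate could be left out, because the choice of regions needs both lists. No paired analysis was possible because no test was made and 1 group of peak lists was used. Without counts, a peak missing from replicate 1 cannot be told apart from one below its calling limit.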
